A study of Homo sapiens with 8 samples.

Results

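The aminoacyl-tRNA synthetases and the scaffold proteins that hold some of them together were followed through the knockdown of HHEX, of YAP/TAZ and of the 4 TEAD factors in HCT-116, a colorectal carcinoma cell line. The 39 genes were taken by symbol as a family, with no cutoff on a measured value, although earlier results of these data were known when the family was picked. They comprise 20 cytosolic enzymes (older symbols without the suffix 1, such as AARS for AARS1), 16 mitochondrial enzymes (suffix 2) and 3 scaffolds, out of 20030 rows per library. RNA-seq expression in FPKM (fragments scaled by the length of the transcript and by the number of mapped fragments in the library) was available for 8 libraries: 2 of cells given a negative control siRNA (siNC), 3 of cells given siRNA against HHEX (siHHEX), 2 of cells given siRNAs against YAP and TAZ together (siYAP/TAZ) and 1 of cells in which TEAD1 to TEAD4 were all targeted (siTEAD1/2/3/4). All groups shared the same parental line and the transfection of an siRNA. According to the methods, the knockdown of HHEX used 3 different siRNAs and that of YAP/TAZ 2 different pairs of siRNAs, and 1 siRNA was directed at TEAD1, TEAD3 and TEAD4 with a separate one for TEAD2. The spread within a knockdown group therefore includes the difference between siRNAs, and the labels do not say whether the siNC libraries came from separate cultures, so that p-values measure only the spread between these libraries.

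Each synthetase joins 1 kind of amino acid to its tRNA, the step that sets which amino acid a codon is read as. The cytosolic and mitochondrial compartments use separate enzymes for most amino acids, all of them encoded in the nucleus. GARS and KARS supply both compartments, EPRS carries the glutamate and proline activities in 1 protein, and FARSA and FARSB are the subunits of a single phenylalanine enzyme. Several cytosolic enzymes sit in a multisynthetase complex around AIMP1, AIMP2 and EEF1E1. When uncharged tRNA accumulates, the kinase GCN2 (EIF2AK4) raises translation of the transcription factor ATF4, which is known to bind C/EBP-ATF response elements in front of many cytosolic synthetase genes.

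The response element can be read directly in the promoters. RefSeq promoters of 300 bases (250 before and 50 after the start of transcription, GRCh38.p14) were available for 33 of the 39 genes and were searched on both strands for the letters TGATGNAA, the core of the element. A match was found for 8 genes, which were 7 of the 16 cytosolic enzymes with a promoter, 1 of the 14 mitochondrial enzymes and none of the 3 scaffolds. Counted by promoter, since some genes have several, 8 of the 45 promoters of these genes held a match, as did 3.63% of all 34796 promoters of this length. The stretches of 30 bases around the match in 6 cytosolic genes are shown because the matched letters were the same 8 bases, read on one or the other strand. Each is written 5′ to 3′ on the strand of the gene with the match in capitals.
AARS: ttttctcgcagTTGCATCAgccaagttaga
CARS: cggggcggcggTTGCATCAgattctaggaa
IARS: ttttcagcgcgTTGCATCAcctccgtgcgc
MARS: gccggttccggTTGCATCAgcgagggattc
TARS: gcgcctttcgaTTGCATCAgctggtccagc
NARS: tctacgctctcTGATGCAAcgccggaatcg
The stretches lie at chr16:70289675-70289704 for AARS, chr11:3057407-3057436 for CARS, chr9:92293692-92293721 for IARS and chr18:57621804-57621833 for NARS (all minus strand), and at chr12:57488053-57488082 for MARS and chr5:33440956-33440985 for TARS (plus strand). In AARS the match begins 187 bases upstream of the start site, whereas in CARS, IARS and MARS it begins 2, 13 and 4 bases upstream of it and in NARS and TARS 14 and 2 bases downstream of it. GARS and YARS2 held the match with other letters at the free position. A match is a description of these letters and says nothing of whether a factor was bound.

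All 39 genes passed the filter on low values, as did 10677 of the 20030 rows. In siNC the cytosolic enzymes had a median of 43.1 FPKM, from 8.85 for CARS (cysteine) to 100.4 for KARS (lysine). The mitochondrial enzymes had a median of 7.88 FPKM, from 1.15 for FARS2 (phenylalanine) to 41.5 for IARS2 (isoleucine), and the scaffolds lay between 9.75 for AIMP1 and 61.7 for EEF1E1. The median of all tested genes was 7.34 FPKM. FPKM is per length of transcript, so these levels can be set side by side, and the ranges of the cytosolic and mitochondrial enzymes overlapped.

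Summed over the 20 cytosolic enzymes, expression was 944 and 911 FPKM in siNC, 979, 974 and 959 in siHHEX, 935 and 934 in siYAP/TAZ and 903 in siTEAD1/2/3/4. The 16 mitochondrial enzymes summed to 172 and 169 FPKM in siNC, 164, 175 and 165 in siHHEX, 178 and 184 in siYAP/TAZ and 178 in siTEAD1/2/3/4. The sums thus stayed close to siNC in each library while single members moved up or down within them. In bulk libraries fewer cells of a type and less RNA per cell cannot be told apart.

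The targets of the siRNAs were read first. HHEX was at 8.6 and 9.06 FPKM in siNC and at 3.25, 3.54 and 1.85 in siHHEX, a fall of 1.37 on the log2(FPKM + 1) scale (adjusted p = 0.0054, limma). In siYAP/TAZ, YAP1 was at 6.90 and 8.39 FPKM against 20.2 and 19.7 in siNC (adjusted p = 0.0681), and WWTR1, the gene of TAZ, at 2.64 and 2.58 against 6.80 and 6.72 (adjusted p = 0.0156). In siTEAD1/2/3/4, TEAD4 was at 5.56 FPKM against 20.3 and 21.3, TEAD1 at 9.02 against 18.3 and 19.0, TEAD2 at 2.73 against 4.10 and 3.47, and TEAD3 at 9.08 against 7.36 and 6.99, so that TEAD3 was not lower in the library labelled as its knockdown. YAP1 stood at 5.77 and 6.93 FPKM in siHHEX 1 and siHHEX 3 but at 17.4 in siHHEX 2, and TEAD1 at 6.99, 10.2 and 5.30 across the siHHEX libraries. Of the epithelial markers, EPCAM, KRT8, KRT18 and CDH1 were expressed in all 8 libraries, whereas VIL1 and CEACAM5, markers of differentiated colon, did not exceed 0.0335 FPKM. The 4 expressed markers summed to 2674 and 2795 FPKM in siNC, 2451, 2592 and 2679 in siHHEX, 1437 and 1467 in siYAP/TAZ and 2174 in siTEAD1/2/3/4, and EPCAM and KRT18 fell in siHHEX and KRT8 and KRT18 in siYAP/TAZ, KRT18 by 1.22 (limma adjusted p = 0.000861). The most abundant of the 12 fibroblast, leukocyte and endothelial markers were CD68 at up to 7.33 FPKM and COL1A1 at up to 2.04, and both were highest in siYAP/TAZ. The part of these markers in the results on the synthetases was not tested.

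Knockdown of HHEX was compared with siNC to see which synthetases moved. With the test fitted over all 10677 genes (limma on log2(FPKM + 1), Benjamini-Hochberg adjusted p under 0.05), 7 of the 39 members rose and 4 fell, and 28 did not pass the test. Over all tested genes, 16% rose and 16.9% fell, so that the counts of members were near or below the share of genes in general. By class, 5 of 20 cytosolic enzymes rose and 2 fell, 2 of 16 mitochondrial enzymes rose and 1 fell, and of the 3 scaffolds 1 fell. The median log2 fold change was 0.02 for the cytosolic enzymes, 0.12 for the mitochondrial enzymes and -0.01 for all tested genes. By a fold over 2 with an unadjusted p under 0.05, none of the 39 members was called in this limma test against 1.63% of all genes. At an unadjusted p under 0.05 alone, 13 members were above and 8 below siNC, against 23% and 24.2% of all genes. Libraries that did not overlap siNC were common. All siHHEX libraries lay above both siNC libraries for 16 of the 39 members and below both for 12, against 3536 and 3610 of all 10677 genes. A lack of overlap, as given for single members below, is thus no trait particular to them. The same test without siHHEX 2 called 12 members higher and 10 lower (2178 and 2661 of all genes), and without either siNC library it called none, with 10 genes in all called higher and 9 lower without siNC 1 and 15 and 12 without siNC 2. Scaling the libraries to a common median of tested genes gave 11 members higher and 3 lower (2197 and 1460 of all genes), and scaling FPKM to the same sum in each library gave 4 higher and 7 lower (1202 and 2383).

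Among the cytosolic enzymes, AARS, which charges tRNA with alanine, had the largest rise of any member. AARS was at 29.7 and 30.5 FPKM in siNC, at 60.7, 43.7 and 50.5 in siHHEX, at 43.1 and 43.1 in siYAP/TAZ and at 37.1 in siTEAD1/2/3/4. Its level was above both siNC libraries in every knockdown library and highest in siHHEX 1, and the log2 fold change in siHHEX was 0.75 ± 0.14 (SE; limma adjusted p = 0.00853, 2 against 3 libraries). CARS, the cysteine enzyme, was at 8.88 and 8.82 FPKM in siNC, 17.0, 12.2 and 13.3 in siHHEX, 10.6 and 11.8 in siYAP/TAZ and 9.64 in siTEAD1/2/3/4. The order of the siHHEX libraries was the same as for AARS and no siHHEX library overlapped siNC, with a log2 fold change of 0.61 ± 0.15 (SE; limma adjusted p = 0.0175).

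VARS, which charges valine, stood at 51.3 and 51.0 FPKM in siNC, 66.6, 67.1 and 74.2 in siHHEX, 48.9 and 39.5 in siYAP/TAZ and 53.3 in siTEAD1/2/3/4. It was above siNC in the 3 siHHEX libraries and below it in both siYAP/TAZ libraries, with a log2 fold change of 0.43 ± 0.12 in siHHEX (SE; limma adjusted p = 0.0285). HARS, the histidine enzyme, was at 38.6 and 39.5 FPKM in siNC, 49.2, 51.1 and 55.4 in siHHEX, 43.4 and 46.9 in siYAP/TAZ and 51.4 in siTEAD1/2/3/4. All 6 knockdown libraries lay above siNC, and the log2 fold change in siHHEX was 0.40 ± 0.11 (SE; limma adjusted p = 0.0239). FARSA, the catalytic subunit of the phenylalanine enzyme, also rose, from 76.0 and 80.0 FPKM to 93.5, 101.9 and 106.2 (log2 fold change 0.36 ± 0.12, SE; limma adjusted p = 0.0429). Its partner FARSB was at 23.1 and 22.1 FPKM in siNC and at 17.7, 20.8 and 15.1 in siHHEX, on the other side of siNC from FARSA in each library, and did not pass the test (adjusted p = 0.0955, limma). The calls of VARS and FARSA were lost without siHHEX 1 and without siHHEX 3 (limma adjusted p = 0.0533 and 0.0599 for VARS), and also with no filter on low values, with the replicate block and after scaling to the same sum (0.0552, 0.0772 and 0.0696 for VARS). HARS kept its call without any 1 siHHEX library but lost it with the replicate block and after scaling to the same sum (limma adjusted p = 0.0706 and 0.0588).

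The cytosolic enzymes that fell were RARS and TARS. RARS, the arginine enzyme of the multisynthetase complex, was at 71.2 and 64.6 FPKM in siNC, 38.0, 49.7 and 40.9 in siHHEX, 60.6 and 75.6 in siYAP/TAZ and 56.4 in siTEAD1/2/3/4. The siHHEX libraries were all below siNC while siYAP/TAZ lay on both sides of it, and RARS fell by 0.66 ± 0.15 on the log2 scale in siHHEX (SE; limma adjusted p = 0.0133). TARS, the threonine enzyme, was at 67.1 and 60.9 FPKM in siNC, 47.0, 48.8 and 41.2 in siHHEX, 60.5 and 64.8 in siYAP/TAZ and 51.1 in siTEAD1/2/3/4. It was below siNC in siHHEX and siTEAD1/2/3/4, and fell by 0.48 ± 0.12 in siHHEX (SE; limma adjusted p = 0.0172).

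Of the mitochondrial enzymes, EARS2 (glutamate) and TARS2 (threonine) rose and IARS2 (isoleucine) fell. EARS2 was at 10.1 and 9.95 FPKM in siNC, 15.7, 17.9 and 15.7 in siHHEX, 13.0 and 10.8 in siYAP/TAZ and 10.9 in siTEAD1/2/3/4. The siHHEX libraries were above all others, with a log2 fold change of 0.66 ± 0.13 (SE; limma adjusted p = 0.00926). TARS2 was at 3.28 and 3.42 FPKM in siNC, 5.26, 5.78 and 5.25 in siHHEX, 4.26 and 6.51 in siYAP/TAZ and 5.14 in siTEAD1/2/3/4. It lay above siNC in all 6 knockdown libraries, and passed the test in siHHEX (log2 fold change 0.56 ± 0.16, SE; limma adjusted p = 0.0274) but not in siYAP/TAZ (0.53 ± 0.18, adjusted p = 0.0893). Its call in siHHEX was lost without siHHEX 1 (limma adjusted p = 0.06). IARS2 was at 42.6 and 40.4 FPKM in siNC, 22.9, 32.7 and 28.6 in siHHEX, 47.1 and 49.4 in siYAP/TAZ and 40.8 in siTEAD1/2/3/4, below siNC in siHHEX and above it in siYAP/TAZ. It fell by 0.56 ± 0.15 in siHHEX (SE; limma adjusted p = 0.0217). With no filter on low values the calls of CARS (limma adjusted p = 0.0523), TARS2 (0.0785) and IARS2 (0.0623) were lost, and with the replicate block that of TARS (0.0552).

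**Figure D1:**
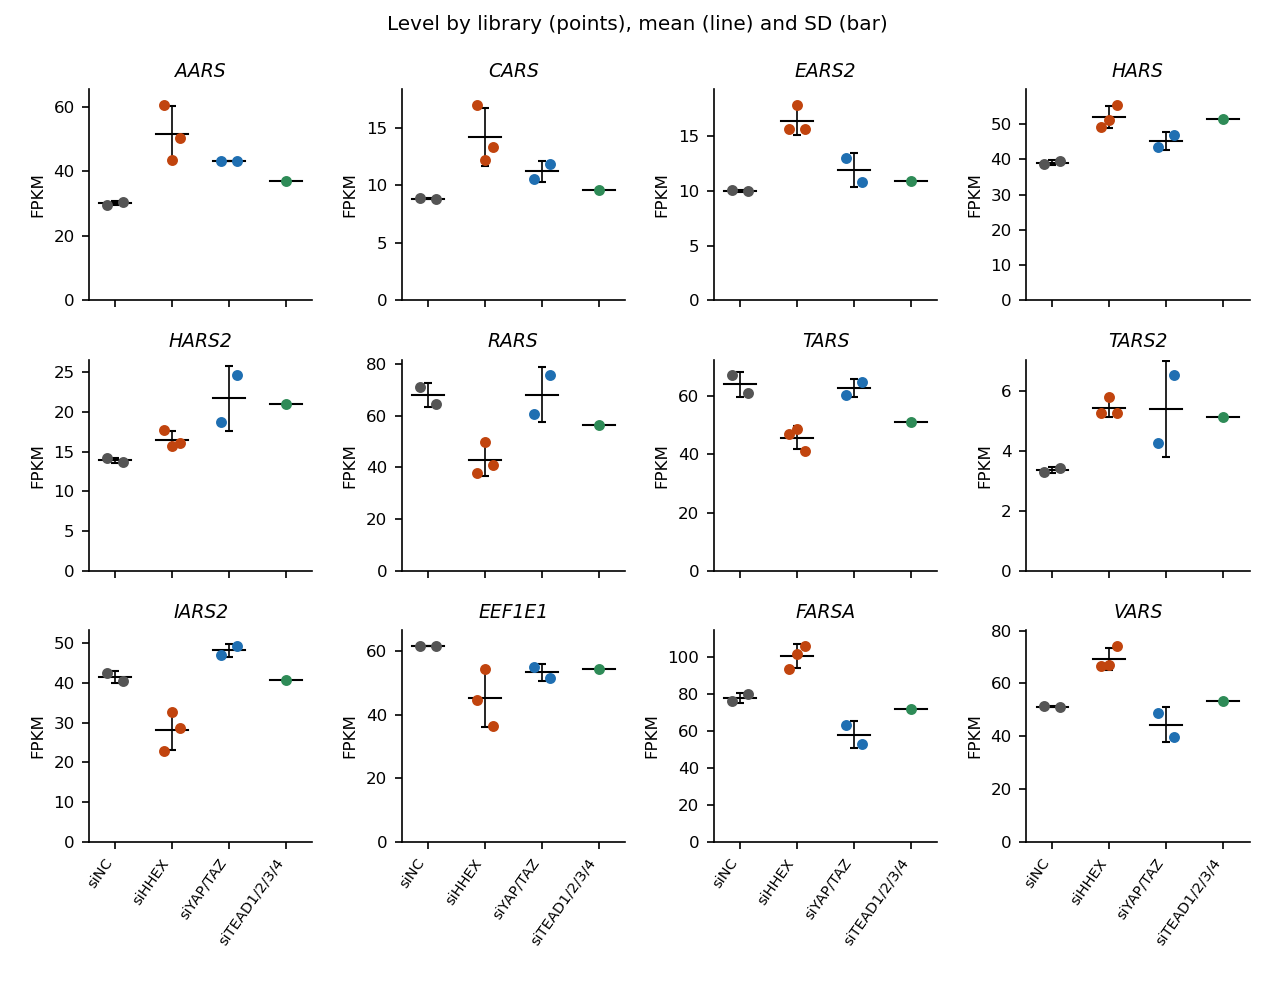
Level in FPKM (vertical axis, from 0) of 12 members in each library, by group: points are libraries, the line is the group mean and the bar the SD (siTEAD1/2/3/4 is 1 library without a bar). AARS, CARS, EARS2 and TARS2 in siHHEX lay above both siNC libraries, and RARS, TARS, IARS2 and EEF1E1 below them.

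Of the scaffolds, EEF1E1 alone passed the test in siHHEX. EEF1E1, also known as AIMP3, was at 61.8 and 61.6 FPKM in siNC, 44.6, 54.6 and 36.5 in siHHEX, 55.2 and 51.5 in siYAP/TAZ and 54.4 in siTEAD1/2/3/4. Every knockdown library was below siNC, and the fall of 0.46 ± 0.16 in siHHEX was just inside the threshold (SE; limma adjusted p = 0.0497). It did not pass under most alternatives, among them median scaling (adjusted p = 0.0742, limma), the GC adjustment (0.4) and leaving out any library of siNC, siHHEX 1, siHHEX 3 or either siYAP/TAZ library (0.0653 to 0.221). AIMP1 had -0.25 in siHHEX (adjusted p = 0.147, limma) and AIMP2 0.34 (adjusted p = 0.0616, limma), neither passing the test, and AIMP1 turned to 0.22 in the GC-adjusted values. Of the 8 enzymes of the complex, none rose and 1, RARS, fell (median log2 fold change -0.25), and of the 12 free cytosolic enzymes 5 rose and 1 fell (median 0.35), beside 16% and 16.9% of all genes. The difference between these small groups was not tested. GC content differed between these groups, with a median of 42.8% in the enzymes of the complex and 52.0% in the free enzymes, and among the GC-adjusted values described below AARS, a free enzyme, was the 1 cytosolic enzyme called.

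Members that did not pass the test in siHHEX ranged from -0.36 for DARS, the aspartate enzyme, to 0.37 for YARS, the tyrosine enzyme. The libraries disagreed for some of them. DARS was at 37.8 and 37.0 FPKM in siNC and at 24.7, 41.1 and 23.8 in siHHEX, so that siHHEX 2 alone was above siNC. CARS2, the mitochondrial cysteine enzyme, was at 3.97 and 3.59 FPKM in siNC and at 4.89, 2.40 and 5.88 in siHHEX, again with siHHEX 2 on the other side. DARS fell and CARS2 rose past the threshold when siHHEX 2 was left out.

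**Figure D2:**
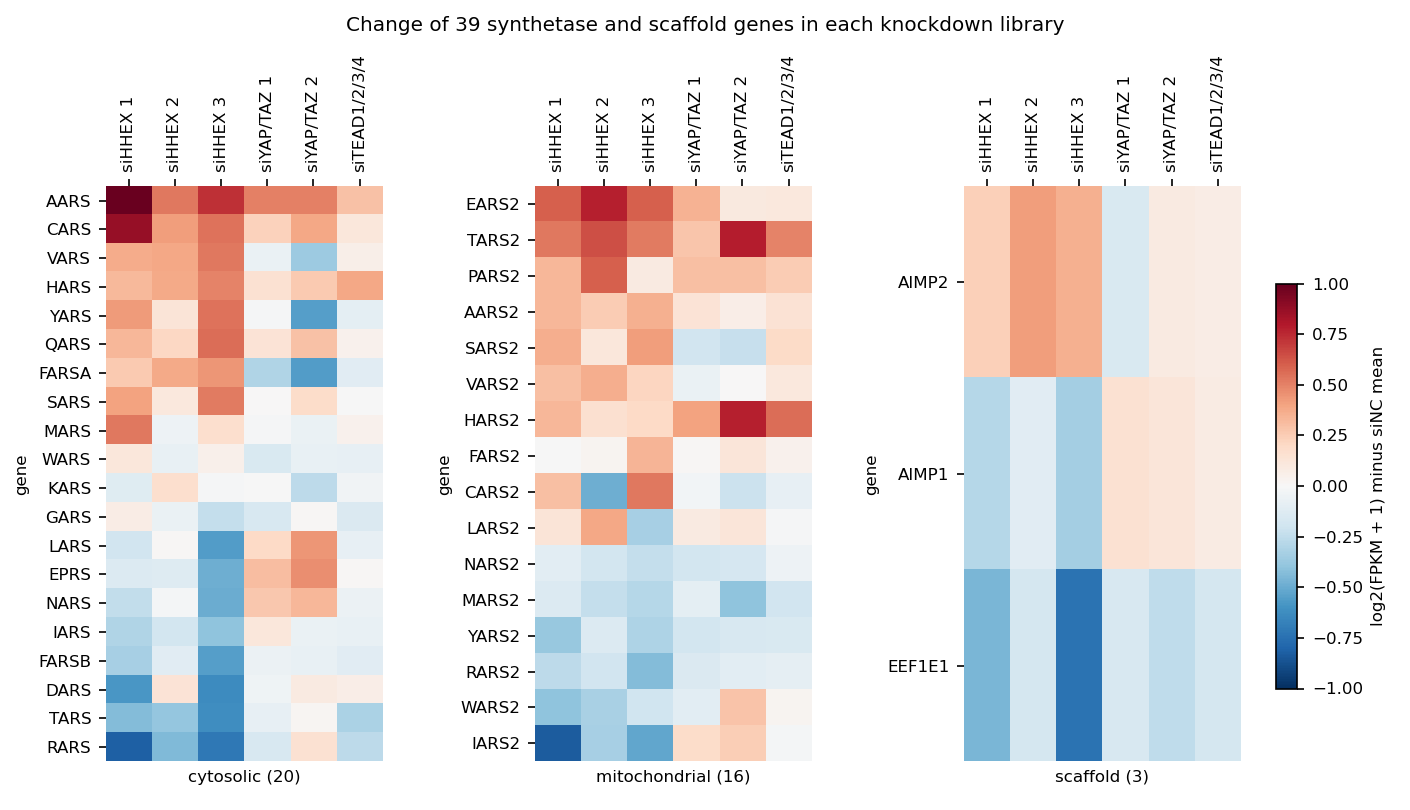
Difference of log2(FPKM + 1) from the siNC mean for the 39 members (rows, ordered by the siHHEX change within each class) in the 6 knockdown libraries (columns), where red is higher and blue lower than siNC. The cytosolic and mitochondrial enzymes each held members on both sides of siNC in siHHEX, the range being -0.66 to 0.75 in the first and -0.56 to 0.66 in the second.

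The direction of the change in siHHEX followed the GC content of the transcript. Over 10609 tested genes with an annotated transcript (GENCODE v44), Spearman's coefficient between GC content and the difference from siNC was 0.68, 0.60 and 0.76 in siHHEX 1, 2 and 3, and over the 39 members it was 0.80, 0.57 and 0.83. In siYAP/TAZ the coefficients were 0.06 and -0.05 over all genes and 0.04 and -0.10 over the members, in siTEAD1/2/3/4 0.30 and 0.48, and between siNC 2 and siNC 1 0.21 and 0.57. These are descriptions across genes, which share a library and are not independent replicates. Of the 21 members with a GC content above the median of tested genes, 6 rose and none fell, and of the 18 at or below it 1 rose, EARS2, and 4 fell. Among all tested genes with a GC content above the median 1586 of 5304 rose and 109 fell, and among those at or below it 113 of 5305 rose and 1690 fell.

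When the trend of each library with GC content and with transcript length was removed (GC-adjusted values), 2 members still passed the test in siHHEX and both rose. AARS kept a log2 fold change of 0.63 ± 0.13 (SE; limma adjusted p = 0.0343) and EARS2 one of 0.74 ± 0.11 (SE; adjusted p = 0.0134). No member fell, and RARS had -0.36 ± 0.11 (SE; limma adjusted p = 0.0826), CARS 0.47 (adjusted p = 0.0793), TARS2 0.37 (adjusted p = 0.17) and TARS -0.20 (adjusted p = 0.186). VARS went from 0.43 to 0.14 (limma adjusted p = 0.426), HARS from 0.40 to 0.22 (0.16), IARS2 from -0.56 to -0.28 (0.194) and EEF1E1 from -0.46 to -0.18 (0.4). FARSA, which is rich in GC, went from 0.36 to -0.04. It was 1 of 13 members whose direction in siHHEX turned with the adjustment, among them FARSB (-0.33 to 0.11), DARS (-0.36 to 0.07) and EPRS (-0.25 to 0.11), and FARSA was the only one of them that had passed the test. Over all genes the adjustment left 376 called higher and 336 lower. Whether GC content itself or a property that goes with it moved these values was not tested.

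**Figure D3:**
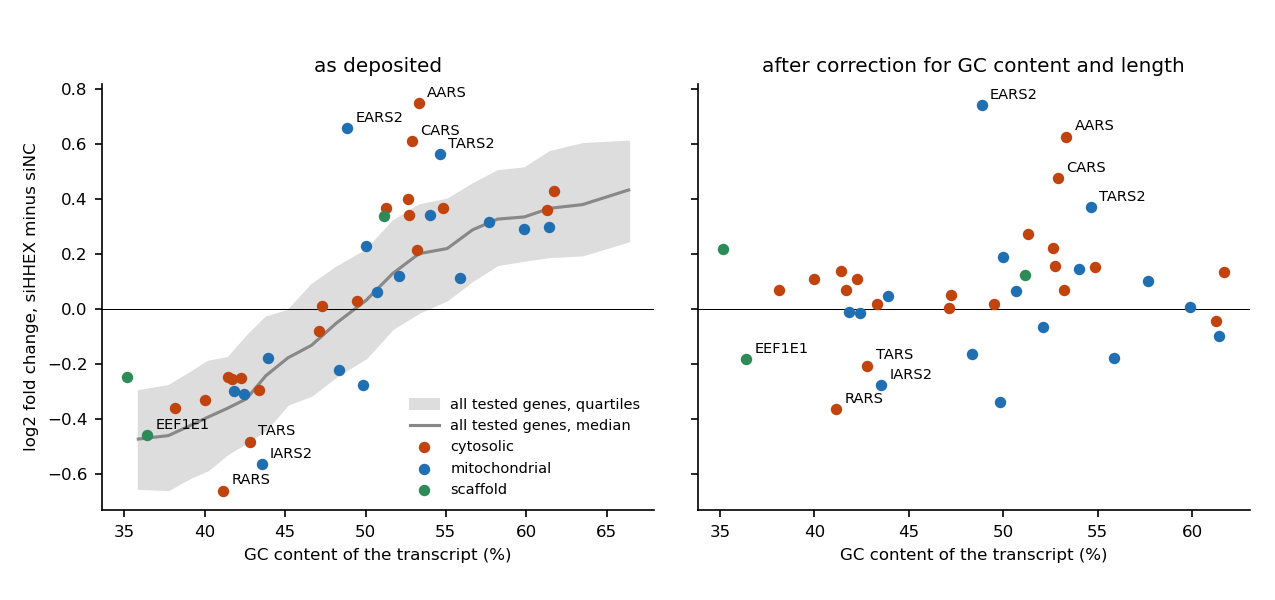
Log2 fold change in siHHEX against siNC (vertical axis) by GC content of the transcript in percent (horizontal axis) for the 39 members, as deposited (left) and GC-adjusted (right), with the median and quartiles of all tested genes in 20 bins of GC content in grey on the left. The median of all genes climbed from -0.47 in the lowest bin to 0.43 in the highest, most members lay along it, and AARS and EARS2 lay above it and remained high after adjustment.

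In siYAP/TAZ, 1 member rose and none fell. Over all tested genes 6.15% rose and 2.13% fell. Both siYAP/TAZ libraries lay above both siNC libraries for 15 members and below both for 11, against 4585 and 2647 of all 10677 genes. None of the 20 cytosolic enzymes passed the limma test, while at an unadjusted p under 0.05 there were 2 higher and 1 lower, against 19.4% and 7.85% of all genes. By a fold over 2 with an unadjusted p under 0.05 none of the 39 members was called, against 1.57% of all genes. Scaling to a common median gave none higher and 1 lower, FARSA (356 and 357 of all genes in place of 657 and 227), and scaling to the same sum 2 higher, AARS and HARS2, and none lower (886 and 177). The median log2 fold change was 0.01 for the cytosolic enzymes, 0.08 for the mitochondrial enzymes and 0.08 for all tested genes. HARS2, the mitochondrial histidine enzyme, was the member that rose. It was at 14.2 and 13.7 FPKM in siNC, 17.8, 15.7 and 16.1 in siHHEX, 18.8 and 24.6 in siYAP/TAZ and 21.0 in siTEAD1/2/3/4. All knockdown libraries were above siNC and siYAP/TAZ 2 was the highest, with a log2 fold change of 0.59 ± 0.15 in siYAP/TAZ (SE; limma adjusted p = 0.0458). The call was lost without siYAP/TAZ 2 (adjusted p = 0.243, limma), without siHHEX 1 (0.0623), and without siNC 1 (0.257) or siNC 2 (0.284). HARS2 also lost its call with no filter on low values, with the replicate block and after scaling to a common median. AARS had 0.50 ± 0.15 (SE; limma adjusted p = 0.0738) and FARSA -0.43 ± 0.13 (adjusted p = 0.0691), FARSA being at 63.0 and 52.7 FPKM, below both siNC libraries. FARSA fell past the threshold in the GC-adjusted values (-0.52 ± 0.12, SE; limma adjusted p = 0.0304).

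HARS2 and HARS lie head to head on chromosome 5, and the stretch between their start sites is shown for that layout. Both members stood above siNC in every knockdown library. AARS, CARS, EARS2, TARS2, AARS2, PARS2 and QARS did so too, so the trait is not particular to this pair. A shared effect through this stretch was not tested. In GENCODE v44 the genes overlap by 108 bases, at chr5:140691430-140691537, on opposite strands. Between the RefSeq start sites lie 84 bases, with HARS leaving to the left and HARS2 to the right, and they (chr5:140691371-140691454, GRCh38.p14, plus strand, no letters in capitals) read as follows.
HARS-HARS2: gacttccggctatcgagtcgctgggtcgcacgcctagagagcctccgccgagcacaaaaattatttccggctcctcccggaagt
Exons of HARS share 8.46% of their bases with other genes and those of HARS2 6.99%, HARS2 and HARS included. Whether counting used strand is not given in the sources used here, so that reads of the overlapping bases cannot be assigned to one or the other. The same holds for MARS (12.4% of exon bases shared, with DDIT3 and ARHGAP9 on the other strand) and AIMP2 (29.1%, with EIF2AK1 on the other strand), and for 48.2% of the exon bases of SARS2 and 18.8% of those of EEF1E1, which are shared with readthrough genes on the same strand.

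The knockdowns of HHEX and of YAP/TAZ were then compared with each other, which tests the difference itself. As given above, YAP1 was also low in siHHEX 1 and siHHEX 3, so this does not set loss of HHEX alone against loss of YAP. In siHHEX relative to siYAP/TAZ, 6 members were higher and 7 lower, against 13.5% and 25.9% of all tested genes, whose median difference was -0.13. The cytosolic enzymes accounted for 3 of the higher and 5 of the lower members, the mitochondrial enzymes for 2 and 1 and the scaffolds for 1 and 1. Scaling to a common median gave 11 higher and 3 lower (2504 and 1514 of all genes in place of 1437 and 2763), and scaling to the same sum 4 higher and 11 lower (857 and 3903). FARSA differed most upwards, by 0.79 ± 0.12 (SE; limma adjusted p = 0.00421), with the 3 siHHEX libraries above and both siYAP/TAZ libraries below siNC. YARS was at 44.3 and 41.9 FPKM in siNC, 58.2, 47.3 and 63.4 in siHHEX, 42.6 and 29.1 in siYAP/TAZ and 40.1 in siTEAD1/2/3/4. Its siHHEX libraries were all above its siYAP/TAZ libraries (difference 0.65 ± 0.18, SE; limma adjusted p = 0.0199), and siYAP/TAZ 2 was the lowest of the 8. The call of YARS was lost without siHHEX 1, without siHHEX 3 and with no filter on low values. It was lost as well in the GC-adjusted values, where the difference stayed at 0.62 ± 0.17 (SE; limma adjusted p = 0.056). VARS differed by 0.64 ± 0.12 (SE; limma adjusted p = 0.00667).

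IARS2 differed most downwards, by -0.77 ± 0.15 (SE; limma adjusted p = 0.00673), followed by RARS at -0.66 ± 0.15 (adjusted p = 0.0107) and EPRS at -0.63 ± 0.14 (adjusted p = 0.0101). EPRS, the glutamate and proline enzyme, was at 32.2 and 30.2 FPKM in siNC, 28.3, 28.5 and 22.0 in siHHEX, 38.8 and 43.3 in siYAP/TAZ and 31.4 in siTEAD1/2/3/4. It lay below siNC in siHHEX and above it in siYAP/TAZ, although neither knockdown differed from siNC past the threshold (limma adjusted p = 0.181 and 0.144). LARS, NARS, TARS and AIMP1 were the other members lower in siHHEX than in siYAP/TAZ, and SARS2, EARS2 and AIMP2 the others higher. In the GC-adjusted values, EARS2, FARSA and VARS remained higher and no member was lower, beside 583 and 353 of all 10609 genes. With the replicate block added to that adjustment, no member was called (99 and 108 of all genes). Without siYAP/TAZ 2, which leaves 1 library in that group, most of these calls were lost, among the members as among all genes. Without siHHEX 2 there were 10 members higher and 11 lower (1754 and 3407 of all genes in place of 1437 and 2763).

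The siTEAD1/2/3/4 library has no replicate, and its differences from siNC carry no test. Past a difference of 0.322 on the log2(FPKM + 1) scale, 3 members were higher and none lower, against 17.8% and 8.95% of all tested genes. These were HARS2 (0.56), TARS2 (0.50) and HARS (0.39), each of which was also above siNC in all siHHEX and siYAP/TAZ libraries. The lowest were TARS (-0.319), RARS (-0.26) and MARS2, the mitochondrial methionine enzyme (-0.19). MARS2 was at 15.7 and 16.1 FPKM in siNC and at 14.4, 13.4, 12.9, 14.8, 11.8 and 13.8 in the knockdown libraries in the order siHHEX, siYAP/TAZ and siTEAD1/2/3/4, all of them below siNC. The 3 knockdowns share the siNC libraries, so a low or high siNC value moves all of them together.

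Cytosolic and mitochondrial enzymes were then set against each other as classes and within each amino acid. The median change of the cytosolic minus that of the mitochondrial enzymes was -0.10 in siHHEX (-0.12, -0.01 and -0.13 in its libraries), -0.07 in siYAP/TAZ and -0.08 in siTEAD1/2/3/4, while siNC 1 and siNC 2 lay 0.03 above and below their mean. In the siYAP/TAZ libraries taken singly it was -0.00092 and -0.03, within the spread of siNC, and it was 0.0023 without siNC 1. From the GC-adjusted values the siHHEX figure was 0.0909, on the other side of 0. The direction of this small difference thus depended on the adjustment, and no test was made over the classes.

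Within some single amino acids the ratio moved further than the class medians. TARS stood at 19.1 times TARS2 in siNC (ratio of mean FPKM), 8.40 times in siHHEX, 11.6 times in siYAP/TAZ and 9.94 times in siTEAD1/2/3/4. The log2 ratio was 4.35 and 4.16 in siNC, 3.16, 3.08 and 2.97 in siHHEX, 3.83 and 3.32 in siYAP/TAZ and 3.31 in siTEAD1/2/3/4. All knockdown libraries were below both siNC libraries, through a lower TARS and a higher TARS2 in siHHEX and siTEAD1/2/3/4 and through a higher TARS2 in siYAP/TAZ. On the log2(FPKM + 1) scale, TARS minus TARS2 differed from siNC by -1.04 in siHHEX, -0.56 in siYAP/TAZ and -0.82 in siTEAD1/2/3/4, and GC-adjusted by -0.58, -0.56 and -0.67.

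EPRS stood at 3.12 times EARS2 in siNC and at 1.60 times in siHHEX, with 3.45 times in siYAP/TAZ and 2.89 times in siTEAD1/2/3/4. The log2 ratio was 1.68 and 1.60 in siNC and 0.85, 0.67 and 0.49 in siHHEX, the lowest values of the 8 libraries, and on the log2(FPKM + 1) scale the difference was -0.91 before and -0.63 after GC adjustment. YARS stood at 1.69 times YARS2 in siNC and 2.69 times in siHHEX (0.64 before and 0.61 after GC adjustment on that scale), and AARS at 8.76 times AARS2 in siNC and 11.4 times in both siHHEX (0.43 and 0.52) and siYAP/TAZ (0.40 and 0.44). Of the other pairs whose siHHEX libraries did not overlap siNC, EPRS/PARS2 went from -0.59 before to -0.04 after GC adjustment on the log2(FPKM + 1) scale, WARS/WARS2 from 0.34 to 0.03, LARS/LARS2 from -0.31 to 0.07 and MARS/MARS2 from 0.43 to 0.23. IARS/IARS2 had 0.27 before and 0.30 after adjustment and RARS/RARS2 -0.36 and -0.35. The ratio WARS/WARS2 of plain FPKM changed by more, 0.61 in log2, since WARS2 is low and the pseudocount narrows its differences. HARS stood at 2.80 times HARS2 in siNC and 2.08 times in siYAP/TAZ (GC-adjusted difference -0.39), and at 3.14 times in siHHEX, where siHHEX 1 lay between the siNC libraries and the GC-adjusted difference was 0.03. Over the 16 pairs the median change of the log2 ratio was 0.13 in siHHEX, 0.09 in siYAP/TAZ and -0.09 in siTEAD1/2/3/4. In siHHEX 5 pairs lay above both siNC libraries, 5 below and 6 overlapped. The counts were 6, 4 and 6 in siYAP/TAZ and 4, 9 and 3 in the single siTEAD1/2/3/4 library. The pairs described are the larger changes among these, and a lack of overlap with siNC was common over all genes.

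**Figure D4:**
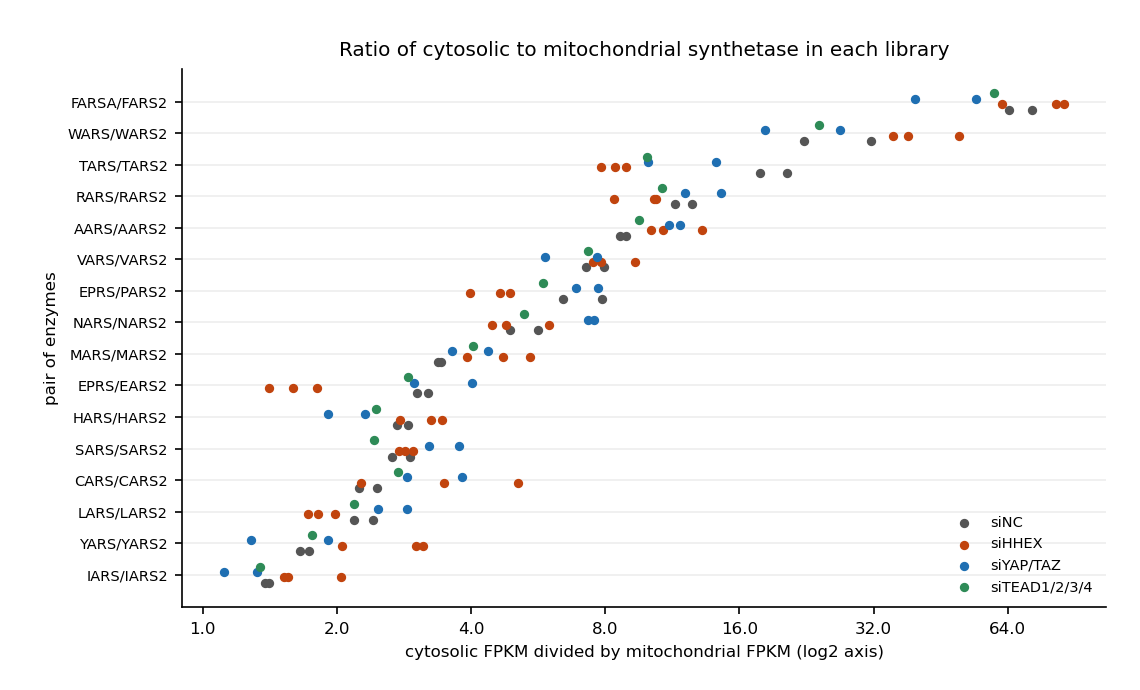
Ratio of cytosolic to mitochondrial FPKM (horizontal log2 axis) for 16 pairs of enzymes for the same amino acid (rows, ordered by the siNC ratio), with 1 point per library coloured by group. The ratio TARS/TARS2 was 19.1 in siNC and 8.40 to 11.6 in the knockdown groups, and EPRS/EARS2 was lowest in siHHEX at 1.60.

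The genes that held the match TGATGNAA lay on both sides of siNC. In siHHEX, AARS and CARS rose, TARS fell, and IARS (-0.29), NARS (-0.25), GARS (-0.08), MARS (0.21) and YARS2 (-0.28) did not pass the test, so that of the 6 genes printed above 2 rose and 1 fell. None of the 8 was called in siYAP/TAZ, where their log2 fold changes ran from -0.17 for YARS2 to 0.50 for AARS. Of the 12 cytosolic enzymes often listed as ATF4 targets, 2 rose and 1 fell in siHHEX (median -0.02), and of the other 8 cytosolic enzymes 3 rose and 1 fell (median 0.19). With 16% of all genes higher and 16.9% lower, counts this small say nothing particular of either group. The letters GGAATG, the core of the motif bound by TEAD factors, were searched after the data had been seen and were found in 6 of the 45 promoters (of AIMP1, CARS, FARS2, WARS2 and YARS2), a share near the 14.0% of all promoters.

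Genes of the amino acid stress response were read beside the synthetases. For this list and those that follow, values are given before GC adjustment only. The trend with GC content in siHHEX described above applies to them as to all genes. Of 30 listed, 27 were tested, and 8 rose and 2 fell in siHHEX, beside 16% and 16.9% of all genes. The median difference of the list from siNC was 0.41 in siHHEX 1 but 0.07 and 0.10 in siHHEX 2 and 3. Over all tested genes it was -0.02, 0.02 and -0.01 in these libraries. In siYAP/TAZ 1 rose and 2 fell, beside 6.15% and 2.13% of all genes. DDIT4, an inhibitor of mTORC1, had the largest rise in both, from 12.5 and 12.7 FPKM in siNC to 48.5, 26.2 and 27.6 in siHHEX (1.31, limma adjusted p = 0.00843) and to 39.1 and 53.7 in siYAP/TAZ (1.78, adjusted p = 0.00996). SLC38A2, a transporter of neutral amino acids, fell most in siHHEX (-0.67, limma adjusted p = 0.0182), and SLC7A5, the light chain of the large neutral amino acid transporter, in siYAP/TAZ (-1.06, adjusted p = 0.0148). ATF4 itself, named after its values were seen, was at 51.2 and 53.3 FPKM in siNC, 121.9, 68.5 and 82.8 in siHHEX, 59.5 and 47.3 in siYAP/TAZ and 56.8 in siTEAD1/2/3/4. It rose in siHHEX (0.75 ± 0.21, SE; limma adjusted p = 0.0279), and siHHEX 1, 3 and 2 came in the same order from high to low as for AARS and CARS. This order was read after the values were seen. Of the other genes printed with the match, MARS shared it, while IARS, NARS and TARS were highest in siHHEX 2 (50.8, 48.4 and 48.8 FPKM). A link between ATF4 and these genes was not tested. ASNS, the asparagine synthetase, was at 30.9 and 28.9 FPKM in siNC and 59.4, 37.9 and 36.5 in siHHEX. It was also highest in siHHEX 1 but had siHHEX 2 above siHHEX 3, and did not pass the test (adjusted p = 0.0615, limma).

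Of the 12 genes that support tRNA charging, 1 rose and 2 fell in siHHEX, beside 16% and 16.9% of all genes. None was called by limma in siYAP/TAZ, beside 6.15% and 2.13% of all genes. At an unadjusted p under 0.05, 1 was higher and 0 lower there, beside 19.4% and 7.85% of all genes. These counts were at or below the shares of all genes. XPOT, the export receptor of tRNA, fell most in siHHEX, from 26.8 and 25.3 FPKM in siNC to 15.7, 19.6 and 13.9 (-0.65, limma adjusted p = 0.0141). GATB, a subunit of the mitochondrial amidotransferase that turns glutamate on tRNA into glutamine, rose most in siHHEX, from 15.3 and 15.3 FPKM to between 19.4 and 24.2 (0.44, limma adjusted p = 0.0395). GATB acts on the tRNA that EARS2 charges, while QRSL1, the catalytic subunit of the same amidotransferase, fell by 0.41 (limma adjusted p = 0.0275). Whether these opposite changes go with GC content was not tested. In siYAP/TAZ the extremes were SEPSECS (0.51, adjusted p = 0.0748, limma), which completes selenocysteine on its tRNA, and AARSD1 (-0.32, adjusted p = 0.217, limma).

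Of 9 genes listed as elongation factors, some of which deliver the charged tRNA to the ribosome or move it on, 2 rose and 2 fell in siHHEX. Over all genes 16% and 16.9% did. None was called by limma in siYAP/TAZ, beside 6.15% and 2.13% of all genes. At an unadjusted p under 0.05, 0 were higher and 1 lower there, beside 19.4% and 7.85% of all genes. TUFM, the mitochondrial factor that carries the charged tRNA, rose by 0.55 in siHHEX (limma adjusted p = 0.00701) and GFM1, the mitochondrial translocase, fell by 0.62 (adjusted p = 0.0369). In siYAP/TAZ the extremes were GFM2 (0.34, adjusted p = 0.227, limma) and EEF1D (-0.34, adjusted p = 0.159, limma). WARS is known to be induced by interferon, and it was at 35.6 and 37.1 FPKM in siNC and between 32.5 and 39.4 in the knockdown libraries.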

How the data were processed

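Expression was read from 1 table of FPKM values per library, as the authors deposited them (20030 rows each). Per the labels, total RNA was extracted with Trizol, and the submitters' processing notes name Trimmomatic 0.36, HISAT2 2.0.5, Cufflinks 2.2.1 and HTSeq 0.9.1. The genome build and annotation behind the FPKM values and the strandedness of counting are not given in the sources used here. The study's methods name a count model. Counts were not used here, so limma 3.58.1 (R 4.3.3) with a trend of variance on mean expression was fitted to log2(FPKM + 1), 1 being the pseudocount, for genes reaching 1 FPKM in 2 or more libraries. Changes of low genes come out too small on this scale. All 8 libraries entered 1 fit with a coefficient per group, and p-values are two-sided and adjusted over the 10677 tested genes. With siTEAD1/2/3/4 alone in its group, the spread came from the other groups.

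The members, taken as a gene family by symbol, and all gene lists were chosen with earlier results of these data known. Members were described in full when they passed the test in siHHEX or siYAP/TAZ on the same side of the siNC mean in every library (up to 6 in each direction), or were among the 3 extremes of the other comparisons; FARSA in siHHEX, FARSB, DARS, CARS2, WARS and ASNS were added after their values were seen. Total read counts per library were not used here, and relative depth, estimated from the smallest values, ran from 0.924 to 1.09 times that of siNC 1. FPKM summed to between 331663 and 383423 per library. GC content and length came from the Ensembl canonical transcripts of GENCODE v44 (GRCh38) for 99.4% of tested genes, and promoters from RefSeq; 6 members without a promoter entry were AARS2, DARS, LARS, VARS, VARS2 and YARS. A planned description of protein sequences was not made. Alternatives were the pseudocount, the filter, the libraries fitted, 2 scalings, the GC and length correction, the replicate number as a block, the call rule and leaving out each library. The list of interferon-induced genes is not reported here.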

Additional observations from a re-analysis of the deposited data

How the results depend on the processing

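The members described in full by the rule for named genes kept their direction under every alternative run, with 171 values on their side of the threshold and 84 that lost the call. This does not hold for the others: with the GC and length correction 13 of the 39 members turned direction in siHHEX, FARSA among them, 3 in siYAP/TAZ and 11 in siHHEX against siYAP/TAZ, AIMP1 among them. Rescaling FPKM to the same sum in each library moved the median of all tested genes to -0.10 in siHHEX, 0.14 in siYAP/TAZ and -0.30 in siHHEX against siYAP/TAZ (from -0.01, 0.08 and -0.13), and changes were read beside these medians. The groups are small, and with 1 siNC library left the test called few genes of all those tested against siNC, so that the calls in both knockdowns rest on having both siNC libraries. The cause of the other changes was not tested.

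In siHHEX, with 5 cytosolic enzymes called higher and 2 lower and 2 mitochondrial enzymes higher and 1 lower, the number of cytosolic enzymes called higher was 2 with no filter on low values, 2 with the replicate block, 2 after rescaling to the same sum, 1 after the GC and length correction, 0 with that correction and the replicate block and 0 by a fold over 2. The cytosolic enzymes called lower were 1 with the replicate block and 0 after the GC and length correction, with or without the block, or by a fold over 2. The mitochondrial enzymes called higher were 1 with no filter, 4 after median scaling and 1 after the GC and length correction, with or without the replicate block, and those called lower were 0 with no filter, 3 after rescaling to the same sum and 0 after the GC and length correction, with or without the block. Over all 10677 genes, 1712 rose and 1806 fell in the main fit, 1023 and 1039 with the replicate block and 2197 and 1460 after median scaling. They were 1202 and 2383 after rescaling to the same sum and 1036 and 871 of 16276 with no filter. After the GC and length correction 376 and 336 of 10609 were called, and 63 and 99 with the block added.

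In siYAP/TAZ, with HARS2 alone called, cytosolic enzymes called higher were 1 after rescaling to the same sum and 2 with only the groups compared in the fit, those called lower were 1 after median scaling, 1 after the GC and length correction and 1 with only the groups compared, and mitochondrial enzymes called higher were 0 with no filter, 0 with the replicate block, 0 after median scaling and 0 after the GC and length correction with the block. Over all 10677 genes, 657 rose and 227 fell in the main fit, 779 and 252 with the replicate block and 356 and 357 after median scaling. They were 886 and 177 after rescaling to the same sum, 1220 and 539 with only the groups compared and 239 and 81 of 16276 with no filter. After the GC and length correction 562 and 650 of 10609 were called, and 480 and 487 with the block added.

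In siHHEX against siYAP/TAZ, cytosolic enzymes called higher (3) were 6 after median scaling and 0 after the GC and length correction with the replicate block. Those called lower (5) were 3 with the replicate block, 2 after median scaling and 0 after the GC and length correction, with or without the block. Mitochondrial enzymes called higher (2) were 1 with the replicate block, 4 after median scaling, 1 after rescaling to the same sum, 1 after the GC and length correction, 0 with that correction and the block and 1 with only the groups compared, and those called lower (1) were 3 after rescaling to the same sum and 0 after the GC and length correction, with or without the block. Over all 10677 genes, 1437 were higher and 2763 lower in the main fit, 1013 and 1924 with the replicate block and 2504 and 1514 after median scaling. They were 857 and 3903 after rescaling to the same sum and 1009 and 1985 with only the groups compared. After the GC and length correction 583 and 353 of 10609 were called, and 99 and 108 with the block added.

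In siTEAD1/2/3/4, 0 members were higher past a fold of 1.5, and 1 was lower past the lesser fold used with a pseudocount of 0.1 and 2 after median scaling. The cytosolic minus mitochondrial median was 0.0909 after the GC and length correction in siHHEX, and in siYAP/TAZ -0.10 with a pseudocount of 0.1 and -0.11 after median scaling.

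Leaving out each library in turn gave 0 to 7 cytosolic enzymes higher and 0 to 6 lower and 0 to 5 mitochondrial enzymes higher and 0 to 3 lower in siHHEX; 0 to 1 cytosolic and 0 to 2 mitochondrial enzymes higher in siYAP/TAZ; 1 to 7 cytosolic enzymes higher and 0 to 8 lower and 0 to 3 mitochondrial enzymes higher and 0 to 3 lower in siHHEX against siYAP/TAZ; and 0 to 2 members lower in siTEAD1/2/3/4. These ranges include fits with 1 library left in siNC or siYAP/TAZ. Over all tested genes, leaving out a siHHEX library gave 1140 to 2178 higher and 969 to 2661 lower in siHHEX. In siYAP/TAZ it gave 416 to 948 and 174 to 369, and in siHHEX against siYAP/TAZ 1161 to 1754 and 1802 to 3407. The cytosolic minus mitochondrial median ran from -0.182 to -0.0824 in siHHEX and from -0.0818 to 0.0023 in siYAP/TAZ.

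The replicate numbers did not pair the libraries: correlations of the deviations of same-numbered libraries ran from -0.0704 to 0.0215. With the number as a replicate block, 4 members rose and 2 fell in siHHEX (1023 and 1039 of all genes). None was called in siYAP/TAZ (779 genes higher and 252 lower in all). In siHHEX against siYAP/TAZ, 4 were higher and 4 lower (1013 and 1924 of all genes).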
